A study of Mus musculus with 10 samples.

Results

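Keratin filaments are the intermediate filaments of epithelial cells, and 9 genes that encode them were followed here in mouse mammary tumours. Of these, 4 are simple keratins of single-layered and glandular epithelium (Krt7, Krt8, Krt18 and Krt19) and 5 are basal keratins of stratified epithelium and its appendages (Krt5, Krt14, Krt15, Krt17 and Krt6a). They were listed by name, without a threshold on measured values but with earlier results of these data known, and all 9 were found among the 18047 genes of the deposited table. The tumours came from 4T1, a breast cancer cell line derived from a BALB/c mouse. They were implanted in BALB/c hosts, collected after 3 weeks and cut as frozen tissue, from which RNA was sequenced. In 5 libraries (KO1 to KO5) the implanted cells carried a knockout of 1 gene, and in 5 (WT1 to WT5) they were wild type. All 10 carry the treatment label of growth in vivo and the batch label 1. The number of knockout clones, the implantation site and the age of the hosts are not given in the sources used here. No label says which animal a library came from, and p-values therefore measure only the spread between these libraries, which may be technical.

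The libraries held 8609756 to 19934428 reads. The names of KO5 and WT1 to WT4 begin with RESUB, which the labels do not explain, and WT2 and WT5 share the number 170. Of the WT libraries, 3 stood apart. The summed level of 14 genes of skin keratinocytes, keratins apart, was 595 normalized counts in WT2, 6525 in WT3 and 2866 in WT5, against 48.9 to 95.0 in the other 7 libraries. In those 7, Flg, Flg2, Dsg1b, Calm4 and Casp14, which are genes of the cornified or upper epidermis, were at 0 (5 of 14). The 3 most abundant of the 14, Dsc3, Dsg1a and Flg2, reached 1326, 1158 and 716 normalized counts in WT3. Basal keratins are also genes of skin, so results on them are given with and without these 3 libraries. Markers of carcinoma epithelium were present in all 10 libraries, with Epcam from 551 in KO2 to 3790 in WT1.

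Keratins work in pairs. A type I keratin (here Krt14, Krt15, Krt17, Krt18 and Krt19) and a type II keratin (Krt5, Krt6a, Krt7 and Krt8) join into a heterodimer, and filaments are built from these units. Krt8 with Krt18 is the pair of simple epithelium and of luminal mammary cells, with Krt7 and Krt19 as further simple keratins of ducts. Krt5 with Krt14 is the pair of basal keratinocytes and of the basal, myoepithelial layer of the mammary gland, Krt15 marks basal cells and hair follicle stem cells, and Krt6a and Krt17 belong to hair follicles and wounded skin.

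The type II members lie together on chromosome 15 and 4 of the 5 type I members on chromosome 11 (GRCm38, GENCODE M21). Krt7 spans 101411043 to 101430313 on the plus strand, Krt6a 101689910 to 101694307 and Krt5 101707070 to 101712898 on the minus strand. Krt8 (101996698 to 102004482, minus strand) and Krt18 (102028180 to 102032027, plus strand) are neighbours at the end of this cluster, and Krt18 is the type I member that lies on chromosome 15. On chromosome 11, all on the minus strand, are Krt15 (100131758 to 100135928), Krt19 (100140810 to 100148665), Krt14 (100203162 to 100207548) and Krt17 (100256217 to 100261029). Some keratin transcripts share sequence with a near copy. Of the 50-base words in the principal transcript of Krt6a, 49.5% also occurred in another gene, mostly Krt6b, and for Krt8 the share was 26.9%, all in the pseudogene Krt8-ps. The shares were 14.4% for Krt14, mostly with Krt16, and 8.52% for Krt5, and at most 3.99% for the other members. How the counting treated reads from such stretches is not given in the sources used here, so the levels of Krt6a and, less so, of Krt8 and Krt14 are uncertain to that extent.

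RefSeq start sites were given for 5 of the 9 members (GRCm38.p6), and the bases just upstream of 3 of them are shown because the paired and neighbouring keratin genes are read from these starts. Each window ran from 250 to 2 bases upstream, and bases that GENCODE annotates as untranslated region were searched for motifs but are not printed. Capitals mark matches, on either strand, to a GC box (GGGCGG), to an AP-2 motif (GCCNNNGGC) or to CACCTG, the E box that Snail and Zeb repressors are known to bind.
Krt18, simple, chr15:102027966-102028179, plus strand: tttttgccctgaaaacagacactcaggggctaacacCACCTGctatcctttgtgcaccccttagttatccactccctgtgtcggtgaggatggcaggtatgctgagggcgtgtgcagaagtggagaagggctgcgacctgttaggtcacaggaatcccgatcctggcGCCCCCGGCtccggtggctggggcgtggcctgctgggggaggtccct
Krt7, simple, chr15:101412153-101412401, plus strand: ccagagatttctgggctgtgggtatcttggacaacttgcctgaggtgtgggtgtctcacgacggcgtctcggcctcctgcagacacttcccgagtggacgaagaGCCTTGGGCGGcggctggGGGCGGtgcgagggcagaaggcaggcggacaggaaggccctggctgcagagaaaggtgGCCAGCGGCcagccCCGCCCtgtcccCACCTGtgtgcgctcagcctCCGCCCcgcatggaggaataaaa
Krt5, basal, chr15:101712907-101713155, minus strand: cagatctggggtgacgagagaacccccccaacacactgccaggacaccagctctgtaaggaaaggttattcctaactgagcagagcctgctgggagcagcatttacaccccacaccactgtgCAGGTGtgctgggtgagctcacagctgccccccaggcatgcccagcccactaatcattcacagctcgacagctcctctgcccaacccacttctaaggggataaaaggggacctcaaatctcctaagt
CACCTG was found once in each of the windows of Krt7, Krt8, Krt18 and Krt5, in that of Krt8 within annotated untranslated region, and 17.2% of all 32535 windows of this length held it. The GC box was found 4 times in the window of Krt7 and in none of the other 4 (32.8% of all windows), and 1 of its matches shares bases with an AP-2 match. The AP-2 motif was found 2 times in Krt7 and 1 time in Krt18 (13.7%). Neither TATAAA (12.3%) nor the AP-1 motif TGANTCA (6.72%) was found in any of the 5. The RefSeq start of Krt14 lies 1518 bases downstream of the start of its principal GENCODE transcript, inside the gene, so its window, which held no match, is not shown. These matches describe letters only.

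The keratin mRNA of these tumours was mostly Krt18 and Krt8 in 9 of the 10 libraries. Levels were divided by the length of the principal transcript, so that genes could be compared with each other. Krt18 stood at 3579 ± 614 normalized counts per kilobase for KO against 4850 ± 954 for WT (SD over 5 libraries each), and Krt8 at 2415 ± 620 and 2945 ± 740. Krt7 followed at 445 ± 90.1 and 770 ± 214, Krt14 at 174 ± 47.4 and 926 ± 1096, and Krt19 at 140 ± 51.3 and 243 ± 126. Krt18 was above Krt8 and Krt8 above Krt7 in 10 of 10 libraries. Krt7 was above Krt14, and Krt14 above Krt19, in 8 of 10, so the order of these 3 differed between libraries. Krt5, Krt17, Krt6a and Krt15 were lower on average, and their order was not stable either: Krt5 was above Krt17 in 1 of 5 KO and in 5 of 5 WT libraries.

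Of the summed per-kilobase level of the 9 genes, Krt8 and Krt18 together made up 85.1% to 92.0% in the KO libraries. In WT they made up 82.9% in WT1, 85.2% in WT2, 84.8% in WT4 and 82.0% in WT5, but 48.0% in WT3. The 4 simple keratins held 96.8% ± 0.90 in KO. They held 93.4%, 94.3%, 97.4% and 90.3% in WT1, WT2, WT4 and WT5, and 56.0% in WT3, where Krt14 alone made up 22.8%, Krt5 7.30%, Krt6a 6.86% and Krt17 5.80%. The simple share of WT4 lay within the KO range and that of WT1 below it, while the share of Krt8 and Krt18 was below the KO range in all 5 WT libraries except WT2, which lay just inside it. The sum of the type I members over that of the type II members was 1.38 ± 0.083 in KO and 1.52 ± 0.13 in WT, with ranges of 1.28 to 1.48 and 1.34 to 1.65 that overlap, and it was 1.62 in WT3. The length used for Krt7 was 4094 bases. With all its annotated exons (7049 bases) the simple share was 54.8% in WT3 and at least 90.0% in each of the others.

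**Figure D1:**
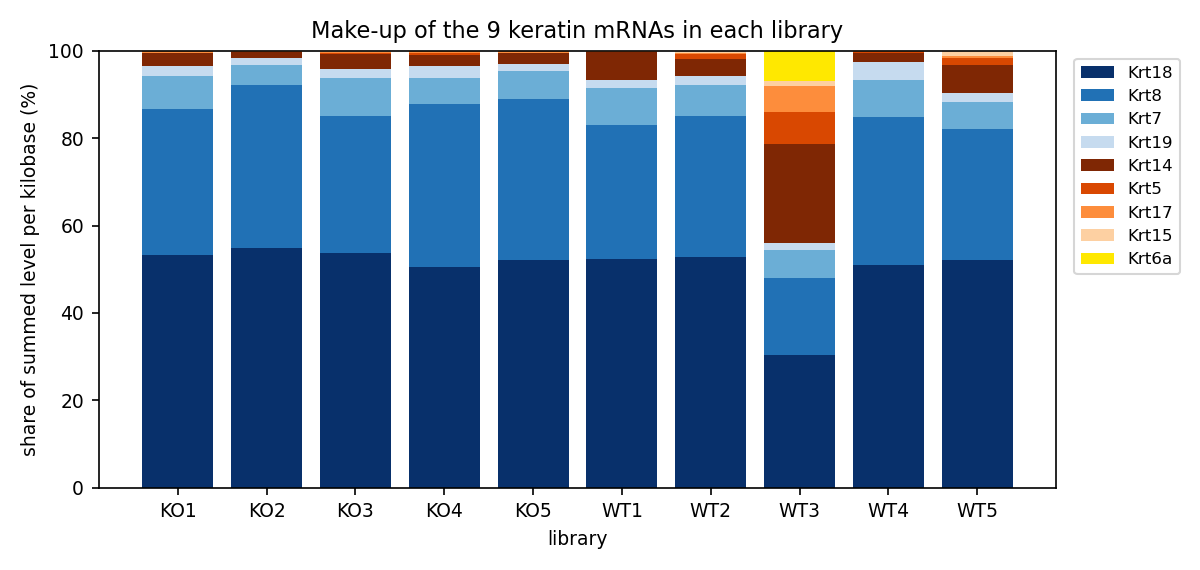
Stacked bars give, for each library on the x axis, the share (%) of each of the 9 keratins in their summed level per kilobase of transcript. Blue shades, the simple keratins, fill at least 90.3% of every bar except that of WT3, where they fill 56.0%.

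Simple keratins were lower in the KO tumours by modest amounts, and none of the 4 passed the test over all genes. Krt7, a type II keratin of ducts, was at 1648, 1249, 2049, 2078 and 2086 normalized counts in KO1 to KO5 and at 3735, 2661, 3292, 4148 and 1937 in WT1 to WT5. Only WT5 lay within the KO range, and the other 4 WT libraries were above every KO library. The log2 difference, KO minus WT on log2 of the normalized count plus 1, was -0.77 ± 0.23 (SE; limma p = 0.00561, adjusted p = 0.545; exact permutation p = 0.0317, two-sided).

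Krt18, the type I partner of Krt8, was at 4125, 5066, 4460, 6134 and 5932 normalized counts in KO1 to KO5 and at 7965, 7037, 5496, 8636 and 5714 in WT1 to WT5. WT3 and WT5 lay among the KO libraries and the other 3 above them, for a log2 difference of -0.43 ± 0.20 (SE; limma p = 0.0488, adjusted p = 0.767; exact permutation p = 0.0476). Krt8 was at 3519, 4667, 3563, 6182 and 5710 in KO and at 6355, 5860, 4340, 7830 and 4443 in WT. WT1 and WT4 alone were above all KO libraries, and the log2 difference was -0.29 ± 0.23 (SE; limma adjusted p = 0.904). The pseudogene Krt8-ps, to which reads of Krt8 could have been assigned, ranged from 25.3 to 60.1 in KO and from 52.8 to 77.5 in WT (log2 -0.49 ± 0.27). The per-kilobase ratio of Krt18 to Krt8 was 1.51 ± 0.14 in KO and 1.66 ± 0.10 in WT, with ranges that overlap.

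Krt19, a small type I keratin that lacks most of the tail, was at 199, 145, 187, 358 and 213 normalized counts in KO1 to KO5 and at 303, 301, 322, 736 and 253 in WT1 to WT5. KO4 lay above 4 of the 5 WT libraries, and WT4 was far above the other WT libraries. The log2 difference was -0.74 ± 0.30 (SE; limma p = 0.0286, adjusted p = 0.71; exact permutation p = 0.0476), and -0.48 without WT4. In these bulk samples fewer cells of a type and less RNA per cell cannot be told apart.

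**Figure D2:**
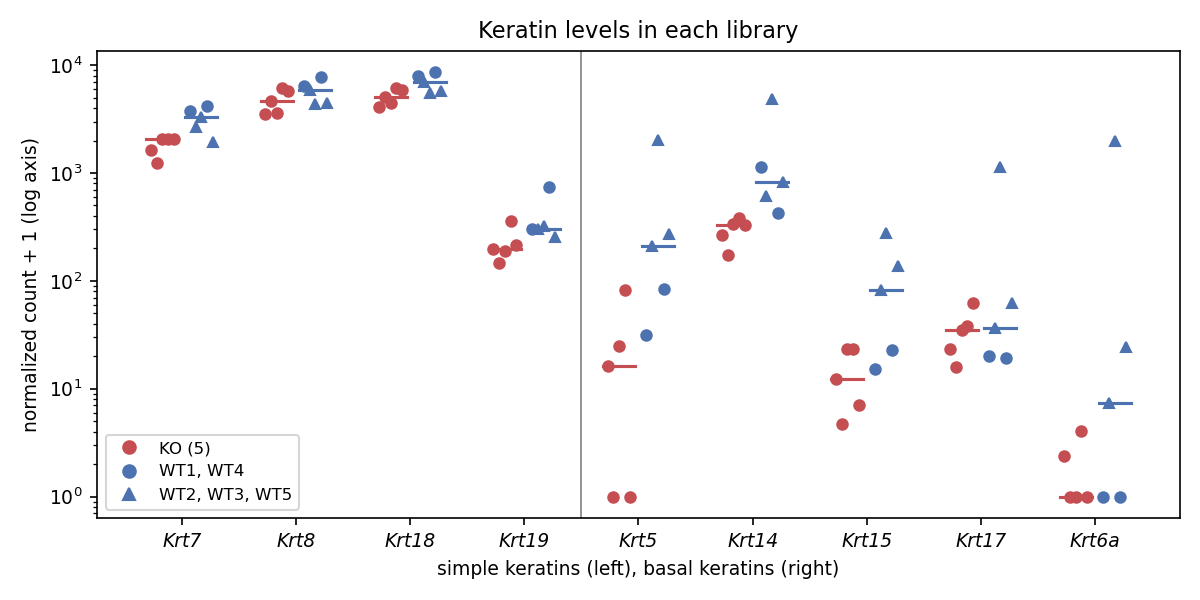
Points give each library's normalized count plus 1 on a log axis for the 9 keratins, KO in red and WT in blue, with triangles for WT2, WT3 and WT5 and a bar at each group's median. Krt14 is the gene whose KO libraries, at most 381, all lie below its WT libraries, at least 422, while Krt5, Krt15, Krt17 and Krt6a are highest in WT3.

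Basal keratins differed more between the groups and far more among the WT libraries, and Krt14 was the member whose groups did not overlap. Krt14, the type I keratin of basal cells, was at 264, 173, 335, 381 and 326 normalized counts in KO1 to KO5 and at 1134, 616, 4869, 422 and 825 in WT1 to WT5. The highest KO library lay under the lowest WT library, and among the WT libraries WT4 came closest to KO. The log2 difference was -1.85 ± 0.52 (SE; limma p = 0.00334, adjusted p = 0.484; exact permutation p = 0.0079, the smallest that 5 against 5 can give). The keratinocyte genes summed to 56.5 normalized counts in WT1, where Krt14 was at 1134, and to 94.1 in WT4, where it was at 422. Without WT2, WT3 and WT5 the difference was -1.27 ± 0.41 (SE; limma adjusted p = 0.688). The part of skin RNA in the level of Krt14 was not tested. KO5, the KO library with the RESUB prefix, was at 326, below the WT libraries of that prefix (422 to 4869). The KO libraries without the prefix, at 173 to 381, were below the 825 of WT5, the WT library without it. Both orders follow from the groups not overlapping, so they add nothing on the part of the prefix. With the prefix as a term in the limma fit, the difference of Krt14 was -1.66 ± 0.67 (SE).

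Krt5, the type II partner of Krt14, was at 15.4, 0, 23.9, 81.8 and 0 normalized counts in KO1 to KO5 and at 30.8, 210, 2020, 83.3 and 269 in WT1 to WT5. It was highest in the 3 libraries with keratinocyte genes, and KO4 lay between WT1 and WT4, with nearly the level of WT4. The 0 in KO2 and KO5 allows up to 2.81 and 2.62 normalized counts (3 reads; counting error only). The fitted log2 difference was -4.62 ± 1.30 (SE; limma p = 0.00343, adjusted p = 0.484; exact permutation p = 0.0159). Its size depends in part on these zeros, and it moved to -5.03 and -3.63 with a pseudocount of 0.5 and 5. It was -3.87 without KO2, -3.87 without KO5 and -3.79 without WT3. It was -2.68 ± 1.67 without WT2, WT3 and WT5.

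Krt15, a type I keratin of basal and follicle stem cells, was at 11.2, 3.75, 22.5, 22.5 and 6.11 in KO and at 14.1, 81.1, 275, 21.7 and 137 in WT. WT1 and WT4 lay within the KO range and the other 3 above it. The log2 difference was -2.44 ± 0.75 (SE; limma p = 0.00627, adjusted p = 0.562; exact permutation p = 0.0476), and -0.65 ± 0.66 without these 3. Krt17, the type I keratin of follicles and wounds, was at 22.4, 15.0, 33.7, 36.8 and 62.0 in KO and at 19.1, 35.5, 1133, 18.1 and 60.9 in WT. Only WT3 lay above the KO libraries, and the difference of -0.999 ± 0.92 (limma adjusted p = 0.927) became 0.044 without WT3 and 0.68 ± 0.51 without all 3. Krt6a, its type II counterpart in wounded skin, had 1967 normalized counts in WT3, 23.3 in WT5 and 6.38 in WT2. It was at 0 in WT1, WT4, KO2, KO3 and KO5, and the KO group held 4 reads in all, 1 in KO1 and 3 in KO4. Its fitted difference was -3.03 ± 1.67 (limma adjusted p = 0.829) and 0.66 ± 0.57 without the 3 libraries, where both WT libraries are at 0 and the sign rests on those 4 reads.

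Set side by side, all 9 keratins had fitted differences below 0, where 51% of the 17975 tested genes did. The median log2 difference was -0.59 for the simple and -2.44 for the basal keratins, and -0.0073 for all genes tested. In limma 0 of the 9 passed at an adjusted p under 0.05, a threshold that 0.00556% of all genes passed as lower in KO. At an unadjusted p under 0.05, 3 of 4 simple and 3 of 5 basal keratins were lower, against 3.67% of all genes, and 0 of the 9 were higher, against 2.82%. The KO libraries lay below all WT libraries for 1 of the 9, Krt14, and for 0.734% of all genes. DESeq2, run on the recovered reads, called Krt14 and Krt15 as lower (adjusted p = 0.00431 and 0.00799), with 0.529% of all genes called lower, and edgeR called none of the 9 (0.00556% of all genes called), with 7 at an unadjusted p under 0.05. These counts over the members are a description.

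Leaving out WT2, WT3 and WT5 moved the 2 classes in opposite ways. The median of the simple keratins went from -0.59 to -0.92 and that of the basal keratins from -2.44 to -0.65. In that fit the difference of Krt7 was -1.14 ± 0.24, of Krt19 -1.16 ± 0.41, of Krt18 -0.71 ± 0.24 and of Krt8 -0.62 ± 0.29 (limma adjusted p of 0.513, 0.698, 0.693 and 0.731), larger in size than in all 10 libraries. At an unadjusted p under 0.05, 3 simple keratins and 1 basal keratin were lower, against 3% of all genes. All 5 KO libraries were below both WT1 and WT4 for 3 of 4 simple keratins (Krt7, Krt8 and Krt18) and for 1 of 5 basal keratins (Krt14), against 5.13% of all genes. Only 2 WT libraries remain in this comparison, WT1 and WT4, and they are the highest of the WT group for Krt7, Krt8 and Krt18. Both carry the RESUB prefix, which KO5 alone of the KO libraries has. With the prefix as a term in the limma fit of all 10 libraries, the simple keratins differed less. Krt7 was at -0.44 ± 0.25, Krt19 at -0.56 ± 0.38, Krt18 at -0.25 ± 0.24 and Krt8 at -0.04 ± 0.27 (SE). Within a library, the mean log2 level of the simple keratins exceeded that of the basal keratins by 6.23, 7.76, 6.08, 5.82 and 7.51 in KO1 to KO5. In WT1 and WT4 the excess was 6.75 and 7.11, within the KO range, and in WT2, WT5 and WT3 it was 4.94, 3.79 and 0.65. With the mean level of the 14 keratinocyte genes as a covariate, the difference of Krt14 was -0.91 ± 0.56, of Krt5 -2.38 ± 1.43, of Krt15 -0.57 ± 0.56, of Krt17 1.20 ± 0.75 and of Krt6a 1.37 ± 1.06 (SE; limma adjusted p from 0.787 to 0.836). In that fit the simple keratins lay between -1.09 (Krt19) and -0.63 (Krt8).

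**Figure D3:**
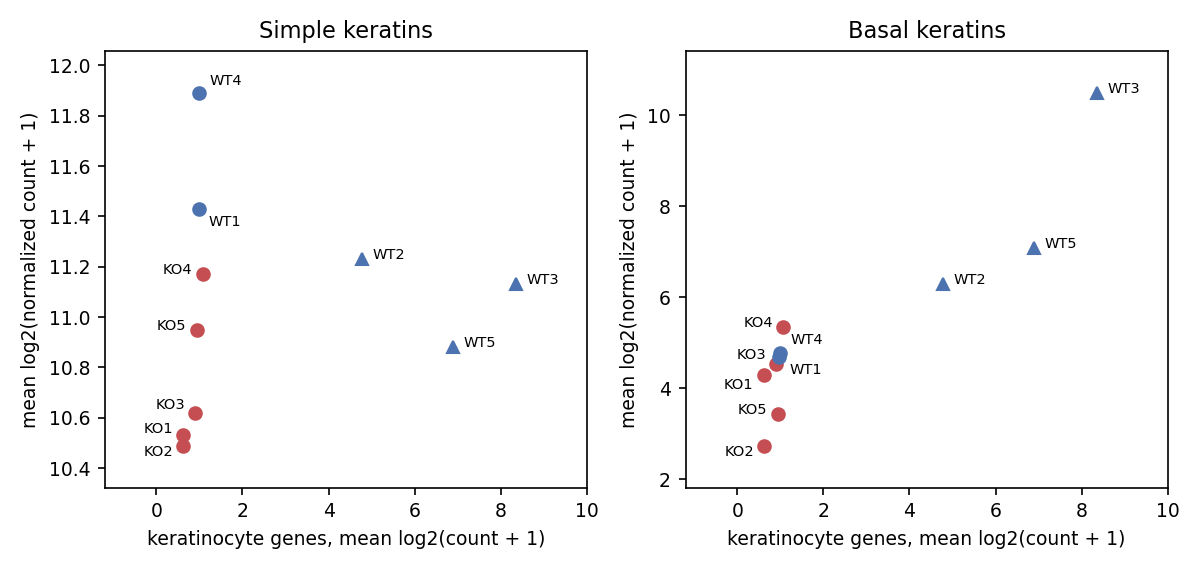
The mean log2 level of the 4 simple (left) and 5 basal (right) keratins in each library is plotted against that of 14 keratinocyte genes, KO in red, WT in blue, triangles for WT2, WT3 and WT5. On the right WT1 and WT4, at 4.68 and 4.78, lie among the KO libraries (2.74 to 5.35), and on the left, at 11.4 and 11.9, they lie above them (10.5 to 11.2).

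Of 15 genes of epithelium that are not keratins, none passed the adjusted test in limma. All 15 had fitted differences below 0 (51% of all genes did), with a median of -0.87, and 9 had an unadjusted p under 0.05, against 3.67% of all genes. The 3 most abundant were Cldn4, a claudin, Epcam, an epithelial adhesion molecule, and Cdh1, which encodes E-cadherin, at log2 differences of -0.82 ± 0.53, -1.26 ± 0.36 and -0.96 ± 0.43 (SE). The mean log2 level of the simple keratins exceeded that of these 15 genes by 3.11 ± 0.73 in KO and by 2.64 ± 0.43 in WT (SD over 5 libraries), with overlapping ranges of 2.16 to 3.81 and 2.02 to 3.19. With the mean level of the 15 genes as a covariate, the differences of Krt7 and Krt19 were -0.34 ± 0.26 and -0.25 ± 0.36 (SE), smaller than in the fit without it, while those of Krt8 and Krt18 were -0.35 ± 0.32 and -0.46 ± 0.28. In the same fit Krt14 was at -1.39 ± 0.68 and Krt5 at -2.43 ± 1.51, and 0 of the 9 had an unadjusted p under 0.05 (limma adjusted p from 0.634 to 0.918), against 4.33% of all genes lower.

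**Figure D4:**
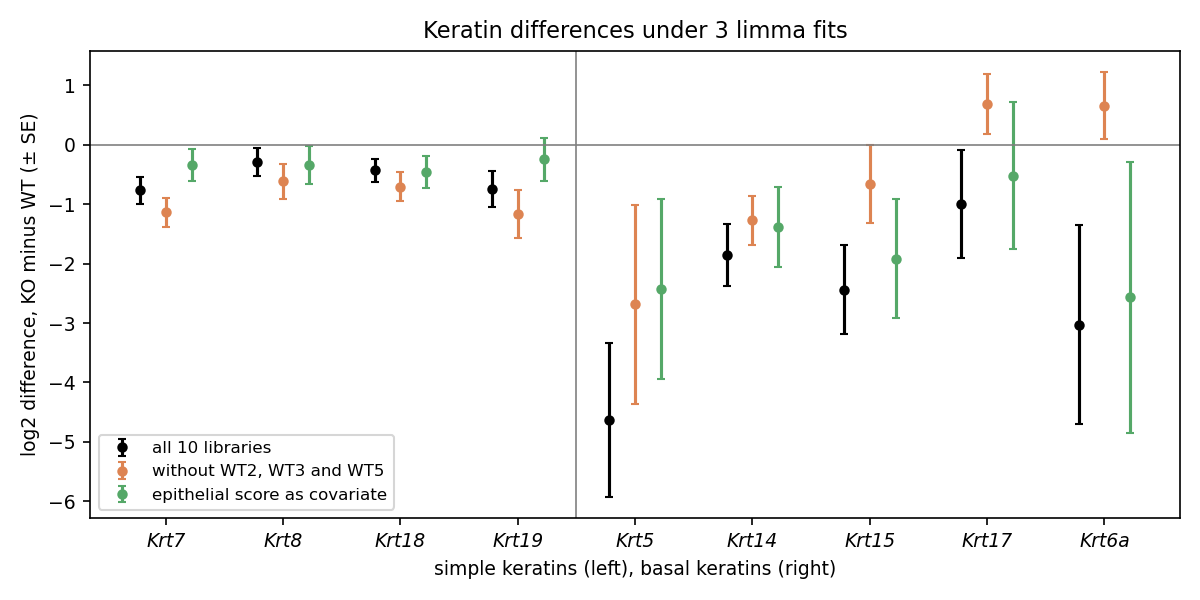
Points give the log2 difference KO minus WT with its SE (bars) for each keratin in limma fits of all 10 libraries (black), without WT2, WT3 and WT5 (orange) and with the epithelial score as covariate (green). The simple keratins lie between -1.16 and -0.25 in all 3 fits, and Krt17 and Krt6a are above 0 in the orange fit.

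The other keratins of the table were mostly those of skin. Krt1, Krt10 and Krt77 were high in all 3 WT libraries with keratinocyte genes, and Krt2, Krt6b and Krt16 in WT3 alone. The table holds 20 keratin entries, the 9 members and 11 others, all tested. Of 7 suprabasal and wound keratins, all 7 had differences below 0 (51% of all genes did), with a median of -2.66. In limma 5 were lower at an unadjusted p under 0.05 (3.67% of all genes) and 0 at an adjusted one (0.00556%). Without WT2, WT3 and WT5 the median was 0, a value set by Krt1, Krt2 and Krt6b, which had no reads in any of the 7 libraries left. Krt1, the type II keratin of differentiating epidermis, was at 44.6 in WT2, 1152 in WT3 and 343 in WT5, in normalized counts, and at 0 in the other 7 libraries. Its partner Krt10 had 152, 1191 and 833 there, against 20.1 to 33.2 elsewhere. WT3 and WT5 differed in the kind of skin keratin. Krt6b, Krt16 and Krt6a, keratins of wounded skin and follicles, stood at 3174, 1287 and 1967 in WT3 but at 6.65, 24.4 and 23.3 in WT5, while Krt77, a keratin of the suprabasal epidermis and sweat ducts, was at 813 and 700.1 in these 2.

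For 2 of the 7 suprabasal and wound keratins, Krt80 and Krt16, all KO libraries lay below all WT libraries, against 0.734% of all genes. Krt80 is a type II keratin of many epithelia. It was at 40.5, 32.8, 30.9, 40.9 and 50.6 normalized counts in KO and at 73.1, 125, 233, 77.5 and 86.4 in WT. Its log2 difference was -1.45 ± 0.31 (SE; limma p = 0.000477, adjusted p = 0.373; exact permutation p = 0.0079). Krt16 ranged from 4.22 to 12.3 in KO and from 13.7 to 1287 in WT. Krt23, another type I keratin of simple epithelium, ranged from 2.80 to 11.3 in KO and from 5.82 to 48.5 in WT (log2 -1.79 ± 0.55, limma adjusted p = 0.574). Of 26 listed follicle keratins 2 were in the table: Krt79 had a difference of -4.14 ± 1.17 and Krt87 of -0.55 ± 0.56.

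Linker proteins anchor keratin filaments to junctions and to other filaments. Of 11 genes for them 9 had differences below 0 (51% of all genes did) and 2 above, with a median of -0.39. At an unadjusted p under 0.05 in limma, 3 were lower (Evpl, Pkp1 and Pkp3, named after their values were seen), against 3.67% of all genes. None of the 11 passed an adjusted p under 0.05. The most abundant were Dst and Plec, which encode the cytolinkers dystonin and plectin, and Jup, the desmosomal plakoglobin, at log2 differences of 0.19 ± 0.34, -0.24 ± 0.32 and -0.57 ± 0.52 (SE). Of 7 other intermediate filament genes 4 were below 0 (51% of all genes were) and 3 above, with a median of -0.19. At an unadjusted p under 0.05 in limma 1 was lower, against 3.67% of all genes. It was Synm, which encodes synemin and was named after its values were seen. Vim, the vimentin of mesenchymal cells and of many carcinoma cells, averaged 26669 ± 7159 for KO against 24901 ± 4852 for WT, in normalized counts (SD, n = 5 each), a log2 difference of 0.076 ± 0.27 (SE). Lmna, the nuclear lamin A and C gene, was at -0.27 ± 0.21 and Des, the desmin of muscle, at -1.89 ± 1.43.

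Epithelial transcription factors, some of which are known to act on keratin genes, had fitted differences below 0 for 10 of 10 tested (51% of all genes), with a median of -1.23. At an unadjusted p under 0.05, 7 were lower (3.67% of all genes), and 0 at an adjusted one (limma). DESeq2, which called 0.529% of all genes as lower, did so for 1 of these 10 and 1 of the 15 epithelial genes. It called 3 of the 7 suprabasal and wound keratins, 1 of the 7 other filament genes and 0 of the linkers as lower. In edgeR 0 were called in each list (0.00556% of all genes). The 3 most abundant of these factors, Tfap2a, Klf5 and Grhl2, were at -0.16 ± 0.36, -0.15 ± 0.24 and -0.94 ± 0.38. Trp63, the master factor of basal epithelium, was named after its values were seen: it was at 518 and 146 normalized counts in WT3 and WT5 and at 8.73 to 61.9 in the other 8 libraries. The median of this list was -0.81 without WT2, WT3 and WT5 and -0.27 with the epithelial score as a covariate.

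Genes of the normal mammary gland, whose basal layer also makes Krt5 and Krt14, varied among the libraries of each group. Of 6 myoepithelial genes, most of which smooth muscle cells also express, 4 had differences below 0 and 2 above (median -0.30). Of all genes 51% were below 0. At an unadjusted p under 0.05 in limma 0 of the 6 passed, where 3.67% of all genes were lower and 2.82% higher. The 3 most abundant, Acta2, Mylk and Tagln, were at log2 differences of -0.26, 0.25 and 0.17. Of 5 tested luminal and milk genes 4 were below and 1 above 0 (median -0.64). At an unadjusted p under 0.05 Esr1 was lower and Pgr higher, beside the same shares of all genes, and 0 of the 5 passed an adjusted one (limma). Among the 3 most abundant, Esr1, the estrogen receptor, was at -0.39 ± 0.17, Prlr, the prolactin receptor, at -0.98 ± 0.85, and Pgr, the progesterone receptor, at 1.51 ± 0.61 (limma adjusted p of 0.75, 0.915 and 0.71). KO2 and KO5, where Krt5 was at 0, were the lowest libraries for Prlr, at 21.6 and 15.7 normalized counts, and KO4, the KO library with the most Krt5, was the highest at 656. Oxtr, the oxytocin receptor of myoepithelial cells, named after its values were seen, was at 2.81, 0.87 and 87.9 in the same libraries. WT3, with the most Krt5 (2020), was the lowest WT library for both, at 107 for Prlr and 6.80 for Oxtr. Of the luminal list, Esr1 differed from Prlr. KO5 and KO2 were its highest KO libraries (520 and 483), and it was at 716 in WT3. Pgr, and Csn3 and Elf5, named after their values were seen, ran like Prlr. They were lower in KO2 and KO5 than in KO4, and of the WT libraries lowest in WT3. The rest of the myoepithelial list differed from Oxtr. KO5 was the highest KO library for Acta2 (1138), Tagln (306) and Cnn1 (108), and KO2 for Mylk (489). Myh11, named like Cnn1 after its values were seen, was lowest in KO5 (27.9). The part of mammary gland RNA in the level of Krt5 was not tested.

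The genes most like 4 of the members were found among the 10947 genes, keratins apart, that averaged 100 normalized counts or more, by Pearson's r of log2 levels over the 10 libraries, as a description. For Krt8 these were Ctnnbl1, Gm7964 and A930004D18Rik (r of 0.938, 0.936 and 0.935), and for Krt18 A930004D18Rik, Tubb2b and Mybl2 (0.948, 0.943 and 0.941). For Krt14 they were Fancc, Depdc7 and Fxyd3 (0.916, 0.913 and 0.912). For Krt5 they were Clca3a2, Perp and Pkp1 (0.983, 0.910 and 0.898). Spearman's rho for these 12 pairs ran from 0.790 to 0.964. Without the 2 libraries farthest from the median of the keratin, r ran from 0.732 for Krt14 with Fancc to 0.959 for Krt5 with Clca3a2.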

How the data were processed

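Per the labels' protocols, libraries were made from total RNA after removal of DNA and ribosomal RNA, with molecular identifiers in the primers. The authors deposited normalized read counts, a signal in which every value came out as a whole number of reads within 0.0001 of a read (100%). The submitters' processing notes name bcl2fastq 2.17 and the build GRCm38. Aligner, counter, strand and whether the identifiers were counted are not given in the sources used here, so reads of overlapping antisense genes cannot be told apart (Krt5, Krt6a, Krt7 and Krt8 share 77 to 471 exonic bases with noncoding genes on the other strand).

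Symbols, positions and lengths came from GENCODE M21 (17953 of 18047 IDs matched). KO was tested against WT for the 17975 genes that averaged 10 or more normalized counts. The test was limma's (3.58.1, R 4.3.3), its variance prior following mean level, applied to log2 values after a pseudocount of 1, and Benjamini-Hochberg adjustment ran over all these genes (threshold 0.05). This scale understates changes of low genes. As alternatives, the recovered reads were tested in edgeR 4.0.16 and in DESeq2 1.42.0. Exact permutation tests were two-sided over the 252 splits of 5 against 5. A level of 0 allows 3 reads per library.

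The members, the 12 gene lists, the designs and the alternatives were chosen with earlier results of these data known. All 9 members are named, other keratins with at least 10 normalized counts on average, and the 3 most abundant genes of each other list. Genes named outside this rule are marked so or illustrate a count. A check of the knocked-out gene is not reported here. Replicate numbers were not used as pairs. Plots were made in Python 3.11.15 (matplotlib 3.10.9).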

Additional observations from a re-analysis of the deposited data

Results flagged for a closer look

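In groups of 5, a library was singled out when its gap to the nearest other library exceeded 0.71 of the group's range. Among 47 groups of keratin values 11 had such a library. Chance gives about 1 in 20 for independent normal values. These groups share the same libraries and are not independent, so their count cannot be set against that rate. In 9 of the 11 the library was WT3. Its levels stood above the other WT libraries for Krt5 (2020 normalized counts), Krt14 (4869), Krt17 (1133), Krt6a (1967), Krt16 (1287), Krt2 (99.0), Krt6b (3174) and Krt79 (394), and its share of simple keratins, 56.0%, stood below them. WT4 stood above the other WT libraries for Krt19 (736 normalized counts). KO5 held the only read of Krt77 in the KO group (0.873 normalized counts).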

How the results depend on the processing

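Each result was recomputed under 26 alternatives. The fitted differences of Krt5, Krt7, Krt8, Krt14, Krt15, Krt18 and Krt19 stayed below 0 in all 26, and those of Krt17 and Krt6a did in 23 and 24. Krt17 was at 1.20 when the keratinocyte score was a covariate, at 0.684 without WT2, WT3 and WT5 and, with 1 library left out, at -1.43 to 0.0444, the latter without WT3, and Krt6a at 1.37 and 0.657 in the first 2 of these. No member passed an adjusted p of 0.05 in limma or edgeR under any alternative, and DESeq2 called 2, Krt14 and Krt15 (it gave no adjusted p for Krt17 and Krt6a). The median of the basal keratins was -0.565 with the keratinocyte score, and -2.96 to -1.30 with 1 library left out, the latter without WT3. The median of the simple keratins was -0.198 within the libraries without the RESUB prefix, where WT5 is the only WT library, and -0.682 to -0.415 with 1 library left out. Krt8, at -0.29 in all libraries, was at -0.04 with the prefix as a term, at -0.06 and -0.03 within the libraries with and without it, and at -0.17 after GC and length trends were removed from each library, an alternative chosen after the data were seen. After this removal Krt7, Krt19 and Krt18 were at -0.63, -0.64 and -0.34. Before it, log2 levels relative to the gene's mean correlated with GC content most positively in WT4 (0.526) and most negatively in WT5 (-0.414). Over all genes limma called 1. It called 0 with WT2 and WT5 averaged, with the keratinocyte score, within the RESUB libraries and without WT2, WT3 and WT5 (1292, 1076, 682 and 1235 at an unadjusted p under 0.05), 2 with the epithelial score, 52 within the libraries without RESUB and 0 to 3 with 1 library left out (752 to 1521 at an unadjusted p under 0.05), while DESeq2 called 121. With the replicate number of the labels as a block, limma called 1 gene and 0 members, and the medians were -0.589 and -2.44. The labels do not say that a number marks a pair. The deviations of same-numbered libraries from their group means correlated at -0.229 to 0.518, and 2 of the 10 libraries correlated best with their own number. The cause of these changes was not tested. At 4 reads in the KO group the depth sets no level for Krt6a there.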

Other observations

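KO2 and KO5 had the 2 lowest mean log2 levels of the 15 epithelial genes that are not keratins, 6.74 and 7.14, against 7.88 to 9.40 in the other 8 libraries. Esrp1, an epithelial splicing regulator named after its values were seen, was at 23.4 and 107 normalized counts in these 2 libraries and at 332 to 1753 in the others. The 15 genes did not all go this way. Cldn7, also named after its values were seen, was at 159 in KO5, the highest KO value. Cdh1 was at 1307 in KO2, above WT2 (686). The simple keratins of KO2 and KO5 differed from each other. Krt8 was at 4667 and 5710 normalized counts and Krt18 at 5066 and 5932, above KO1 and KO3 for both genes. Krt7 was at 1249 and 2086 and Krt19 at 145 and 213, so that KO2 was the lowest of the 10 libraries for Krt7, for Krt19 and for the mean log2 level of the 4 simple keratins (10.49). The simple keratins exceeded the epithelial genes by 3.76 and 3.81 on the log2 scale in KO2 and KO5, the 2 highest values of the 10 libraries. Vim was at 32775 and 32342 normalized counts there, also the 2 highest values. These values were noticed in the data and no test was made of them.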
